A study of Homo sapiens with 4 samples.

Results

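Mitotic kinase and spindle genes of A375 melanoma cells were followed through short and continuous exposure to vemurafenib, an inhibitor of the BRAF kinase. The group held 9 genes of mitotic entry, the spindle checkpoint and cytokinesis (ANLN, ASPM, AURKA, AURKB, BIRC5, BORA, BUB1, BUB1B and BUB3), taken by symbol from a table of 2864 genes with values. A375 is an established human skin cancer line that carries an activating BRAF mutation, and the labels give its genotype as wild type in every library. RNA was sequenced from untreated parental cells (A375P), from a resistant strain (A375R), from cells given 1‰ DMSO for 48 h (A375+DMSO) and from cells given 2 μM vemurafenib for 48 h (A375+VEM). A375R was made from A375 by stepwise rising vemurafenib over months and was kept in the drug, so it differs from A375P both by its selection and by the drug in the medium. All 4 cultures were grown in the same serum-supplemented medium, and the labels give no time for A375P and A375R and do not say whether the medium with vemurafenib held DMSO. Since each condition had a single library, differences between conditions could not be set against replicates, and p-values were not computed.

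A cell that divides must build a bipolar spindle, attach each chromosome to it, hold anaphase until attachment is complete, and then cut itself apart. Aurora A drives centrosome maturation and mitotic entry, Aurora B corrects faulty attachments as the enzyme of the chromosomal passenger complex, and the BUB proteins are parts of the spindle assembly checkpoint that holds the anaphase-promoting complex in check. Transcripts of most such genes accumulate late in the cell cycle and are scarce in cells that do not divide, and BRAF signalling through the MAP kinase pathway is a main drive of proliferation in melanoma cells with mutant BRAF.

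Short exposure to vemurafenib went with far lower levels of most of these genes, and the resistant strain did not share that pattern. In A375+VEM against A375+DMSO, 8 of the 9 genes were lower by more than 1.5-fold and 0 were higher, whereas 19.7% of all genes compared were lower and 26.5% were higher. The threshold was set on the ratio of (TPM + 0.1), where TPM is the read count per gene length scaled to the same total in every library. In A375R against A375P, 5 of the 9 genes were higher by more than 1.5-fold and 0 were lower, beside 26.8% higher and 17.5% lower among all genes. Summed over the 9 genes, the level was 441.7 TPM in A375P, 597.0 TPM in A375R, 599.3 TPM in A375+DMSO and 104.8 TPM in A375+VEM. BUB3 alone made up 78.7 TPM of the sum in A375+VEM and 116.4 TPM of that in A375+DMSO. These are bulk libraries, in which fewer cells in mitosis and less of a transcript per cell cannot be told apart.

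The genes at hand were those from the start of the alphabet, with 1891215 to 2054277 reads per library and 8.48% to 8.94% of each library's TPM. Of 5 melanocytic lineage markers 3 or 4 reached a TPM of 1 in each library, with sums from 48.3 TPM to 87.6 TPM. Those sums came almost wholly from ASAH1, BACE2 and BCL2A1, while ABCB5 had 0 to 6 reads per library and BIRC7 1 to 18. None of 4 leukocyte markers reached a TPM of 1 (sums from 0.260 TPM to 0.750 TPM). Among 3 fibroblast markers, ACTA2 and BGN were above that level in all 4 libraries (sums of the 3 from 74.7 TPM to 113.5 TPM), while ASPN had at most 4 reads in any of them. None of the 3 marker lists had its lowest sum in A375+VEM, and the part of other cell types in the results was not tested. Intervals below hold 95% by the exact Clopper-Pearson method, were computed from reads, and cover counting error only.

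**Figure D1:**
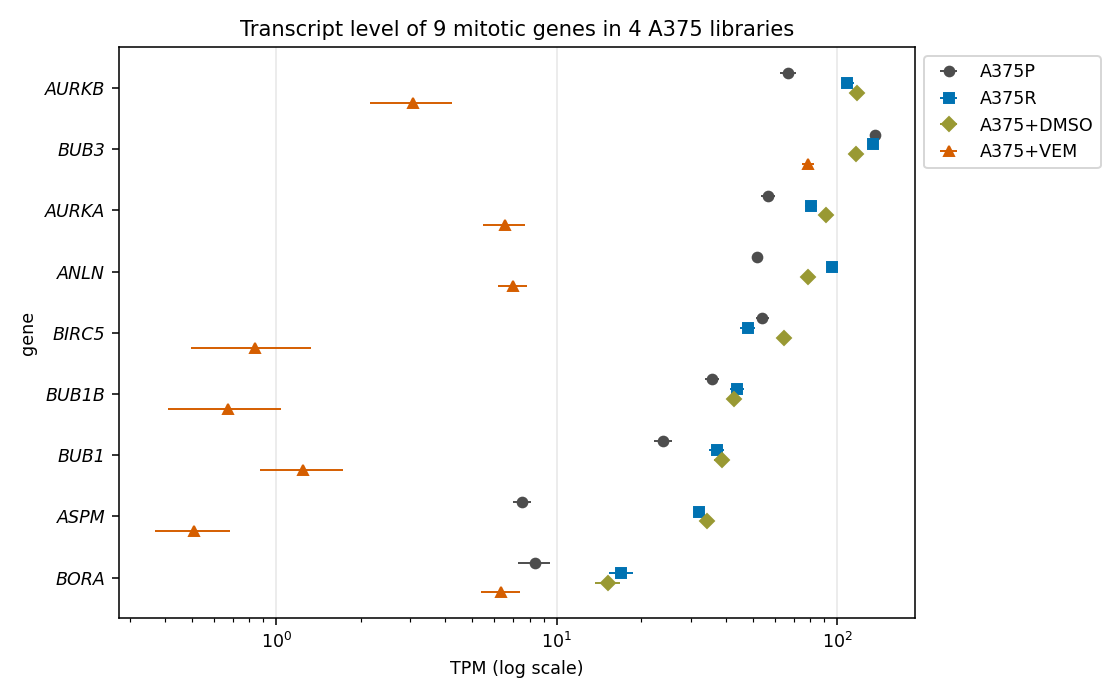
Level of each of the 9 genes (rows) in TPM on a log axis, with 1 point per library and horizontal bars for the 95% counting interval. In A375+VEM 4 genes lay near or below 1 TPM (ASPM, BUB1B, BIRC5 and BUB1), whereas BUB3 stayed at 78.7 TPM.

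AURKA encodes Aurora A, the kinase of centrosomes and spindle poles, and BORA encodes the cofactor through which Aurora A activates the mitotic kinase PLK1. Positions of genes are those of the deposited table, for which the processing notes in the labels name hg19. AURKA (chromosome 20, 54944445 to 54967393, minus strand) had 1259 reads (56.7 TPM) in A375P, 1613 reads (80.5 TPM) in A375R, 1890 reads (91.3 TPM) in A375+DMSO and 134 reads (6.52 TPM) in A375+VEM. It was thus lowest by a wide margin in the library with 48 h of vemurafenib, 14.0-fold below A375+DMSO (interval 11.7 to 16.8). In A375R it was 1.42 times its level in A375P (interval 1.32 to 1.53), which did not pass the threshold. BORA (chromosome 13, 73301887 to 73330336, plus strand) had 228 reads (8.34 TPM) in A375P, 420 reads (17.0 TPM) in A375R, 387 reads (15.2 TPM) in A375+DMSO and 160 reads (6.32 TPM) in A375+VEM. In A375+VEM the cofactor was 2.40-fold below A375+DMSO (interval 1.99 to 2.91), a smaller gap than that of its kinase. In A375R it was 2.04 times as high as in A375P (interval 1.73 to 2.41), a larger gap than that of its kinase. A near copy of AURKA, the pseudogene AURKAPS1, had 18 to 41 reads per library, and how reads were split between the copies is not given in the sources used here.

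AURKB and BIRC5 encode the kinase Aurora B and survivin, which sit in one chromosomal passenger complex. AURKB (chromosome 17, 8108049 to 8113944, minus strand) had 871 reads (66.9 TPM) in A375P, 1280 reads (108.8 TPM) in A375R, 1426 reads (117.4 TPM) in A375+DMSO and 37 reads (3.07 TPM) in A375+VEM. Its level after 48 h of vemurafenib was thus 38.3-fold below that with the solvent (interval 27.6 to 54.6), and it was 1.63 times as high in A375R as in A375P (interval 1.49 to 1.78). BIRC5 (chromosome 17, 76210277 to 76221716, plus strand) had 1252 reads (54.1 TPM) in A375P, 1001 reads (47.9 TPM) in A375R, 1398 reads (64.7 TPM) in A375+DMSO and 18 reads (0.840 TPM) in A375+VEM. Survivin, which also belongs to the family of apoptosis inhibitors, was 77.1-fold below A375+DMSO in A375+VEM (interval 48.6 to 130.5). It was also the only one of the 9 genes whose interval lay below 1 in A375R against A375P, with a ratio of 0.885 (interval 0.814 to 0.963) that stayed within the threshold.

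BUB1, BUB1B and BUB3 act in the spindle assembly checkpoint: BUB1 is a kinase at kinetochores, BUB1B encodes BubR1 of the mitotic checkpoint complex, and BUB3 is the adaptor that brings both to kinetochores. BUB1 (chromosome 2, 111395275 to 111435684, minus strand) had 745 reads (23.9 TPM) in A375P, 1049 reads (37.3 TPM) in A375R, 1126 reads (38.7 TPM) in A375+DMSO and 36 reads (1.25 TPM) in A375+VEM. BUB1B (chromosome 15, 40453210 to 40513337, plus strand) had 1146 reads (35.7 TPM) in A375P, 1271 reads (43.9 TPM) in A375R, 1283 reads (42.9 TPM) in A375+DMSO and 20 reads (0.673 TPM) in A375+VEM. Both genes were thus nearly absent from the A375+VEM library, BUB1 31.1-fold (interval 22.3 to 44.6) and BUB1B 63.7-fold (interval 41.1 to 104.6) below A375+DMSO. BUB3 (chromosome 10, 124913760 to 124924886, plus strand) had 3232 reads (136.4 TPM) in A375P, 2865 reads (133.9 TPM) in A375R, 2572 reads (116.4 TPM) in A375+DMSO and 1727 reads (78.7 TPM) in A375+VEM. The adaptor was lower in A375+VEM by 1.48-fold (interval 1.39 to 1.57) and did not pass the threshold. In A375R the ratio to A375P was 1.56 for BUB1 (interval 1.42 to 1.72), 1.23 for BUB1B (interval 1.13 to 1.33) and 0.981 for BUB3 (interval 0.933 to 1.03).

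A readthrough gene, BUB1B-PAK6, lies over the 3′ end of BUB1B on the same strand, with 3709 bases between 40509629 and 40513337 in both. It had 7 reads in A375P, 49 reads in A375R, 60 reads in A375+DMSO and 78 reads in A375+VEM, or 0.211, 1.63, 1.93 and 2.53 TPM in that order. In A375+VEM it therefore had more reads than BUB1B itself, and with both summed the log2 ratio of A375+VEM against A375+DMSO was −3.76 in place of −5.80, an alternative chosen after seeing the data. How reads in the shared stretch were assigned is not given in the sources used here.

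ASPM encodes the spindle pole protein that organises microtubule minus ends, and ANLN encodes anillin, the scaffold of the contractile ring in cytokinesis. ASPM (chromosome 1, 197053257 to 197115824, minus strand) had 704 reads (7.54 TPM) in A375P, 2710 reads (32.1 TPM) in A375R, 2991 reads (34.3 TPM) in A375+DMSO and 44 reads (0.509 TPM) in A375+VEM. Its gaps were wide in both comparisons: 67.5-fold below A375+DMSO in A375+VEM (interval 50.2 to 93.1) and 4.26 times as high in A375R as in A375P (interval 3.92 to 4.64). ANLN (chromosome 7, 36429412 to 36493400, plus strand) had 2134 reads (52.0 TPM) in A375P, 3544 reads (95.6 TPM) in A375R, 3003 reads (78.4 TPM) in A375+DMSO and 265 reads (6.97 TPM) in A375+VEM. It was 11.3-fold below A375+DMSO in A375+VEM (interval 9.92 to 12.8) and 1.84 times as high in A375R as in A375P (interval 1.74 to 1.94). In the annotation of the newer build GRCh38, KIAA0895 overlaps ANLN and DIS3 overlaps BORA on the opposite strand, and the pseudogene SEPT14P12 lies within ASPM on its strand, and whether counting used the strand is not given in the sources used here.

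Promoter sequences of these genes are shown because late cell cycle genes are known for a promoter element, the cell cycle genes homology region, often found near CCAAT boxes. Its common form reads TTTGAA, and a second form with a single base changed reads TTCGAA. RefSeq promoter windows on GRCh38.p14 were at hand for 6 of the 9 genes (ANLN, ASPM, AURKB, BORA, BUB1 and BUB1B) and not for AURKA, BIRC5 and BUB3. Both strands of the 250 bases before each start were searched for both forms of the homology element and for CCAAT. Lines below run 5′ to 3′ along the gene, and capitals mark these motifs. On the opposite strand the common form of the element is seen here as TTCAAA, and the CCAAT box is seen as ATTGG, while the second form is its own reverse complement.
ASPM, chr1:197146695-197146814, minus strand: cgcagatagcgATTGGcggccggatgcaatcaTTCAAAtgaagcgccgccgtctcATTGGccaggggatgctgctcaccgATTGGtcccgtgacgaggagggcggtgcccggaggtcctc
BUB1, chr2:110678113-110678142, minus strand: ATTGGccaaccttctgccgccgccaCCAAT
ANLN, chr7:36389827-36389856, plus strand: gcgctgaaaTTCAAATTTGAAcggctgcag
BORA, chr13:72727734-72727763, plus strand: aggctgcgttgaTTTGAAtttggagccacg
BORA, chr13:72727787-72727816, plus strand: gaggagttgccaTTCGAAtttcctacgcgg
BUB1B, chr15:40161034-40161063, plus strand: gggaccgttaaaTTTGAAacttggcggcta
AURKB, chr17:8210275-8210394, minus strand: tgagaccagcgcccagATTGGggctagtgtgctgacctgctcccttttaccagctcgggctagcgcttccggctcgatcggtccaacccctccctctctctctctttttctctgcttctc

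Of the 6 genes, 4 held the homology element in one of its forms (ANLN, ASPM, BORA and BUB1B) and 4 held CCAAT (ASPM, AURKB, BORA and BUB1). Among 35116 RefSeq promoter windows of the same length, 14.3% held the element in one of its forms and 32.0% held CCAAT. The common form of the element lay close to the start in BUB1B (23 to 18 bases before it) and in ANLN, where a copy on the opposite strand (26 to 21) directly adjoins one on the gene's strand (20 to 15). ASPM held the common form on the opposite strand (113 to 108) among 4 CCAAT boxes, the last of which lies outside the stretch shown, and 9.53% of all windows held 2 or more CCAAT. BORA held the common form at 177 to 172, the second form at 124 to 119 and 2 CCAAT boxes nearer the start, outside the stretches shown. The windows of BUB1 and AURKB held CCAAT alone, at 79 to 75 and 54 to 50 bases before the start in BUB1 and at 129 to 125 before the upstream of the start sites listed for AURKB. BORA, which differed least between A375+VEM and A375+DMSO among these 6 genes, thus held both kinds of motif, as did ASPM. A match is a stretch of letters, and no binding was measured.

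The order of levels, which TPM allows between genes since it is per length, changed with the library. BUB3 was the highest of the 9 genes in A375P, A375R and A375+VEM, and in A375+DMSO AURKB and BUB3 did not differ beyond counting error (ratio 1.01, interval 0.945 to 1.08). BORA and ASPM were the lowest in A375P, at levels that did not differ beyond counting error, and in A375R and A375+DMSO they were still the lowest 2, with ASPM 1.89 times (A375R) and 2.26 times (A375+DMSO) as high as BORA. For the order in A375+VEM, ratios were taken between neighbours only. BUB3 was 11.3 times as high as the next gene (interval 9.92 to 12.9). The neighbours among ANLN, AURKA and BORA did not differ beyond counting error at 6.32 TPM to 6.97 TPM, and AURKB followed. The neighbours among BUB1, BIRC5, BUB1B and ASPM at 0.509 TPM to 1.25 TPM did not differ either. At the ends of that run, the intervals of BUB1 (0.873 TPM to 1.73 TPM) and ASPM (0.370 TPM to 0.683 TPM) did not overlap. In A375+VEM BUB3 ranked above 92.3% of the genes in the table, and ASPM ranked above 34.9%.

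Set against all 1784 genes compared in A375+VEM against A375+DMSO, the 9 genes had a median log2 ratio of −4.85, and all genes had a median of 0.11. At the pseudocount of 0.1 used here, BIRC5, ASPM and BUB1B were the 3 lowest ratios of the table, at −6.11, −5.82 and −5.80 on the log2 scale. Their order depended on that choice, since with a pseudocount of 1 AURKB (−4.86) lay below BUB1B (−4.71) and ASPM (−4.55), and BIRC5 was at −5.16. The place of BUB1B also rests on how reads shared with BUB1B-PAK6 were assigned, since both summed stood at −3.76. AURKB (−5.21) and BUB1 (−4.85) were at places 6 and 7 from the lowest, AURKA (−3.79) and ANLN (−3.47) at places 19 and 24, BORA (−1.25) at place 149 and BUB3 (−0.56) at place 362. With the ratios scaled so that the median over all genes was 0, BUB3 lay at −0.67 and passed the threshold, which made 9 of 9 lower.

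**Figure D2:**
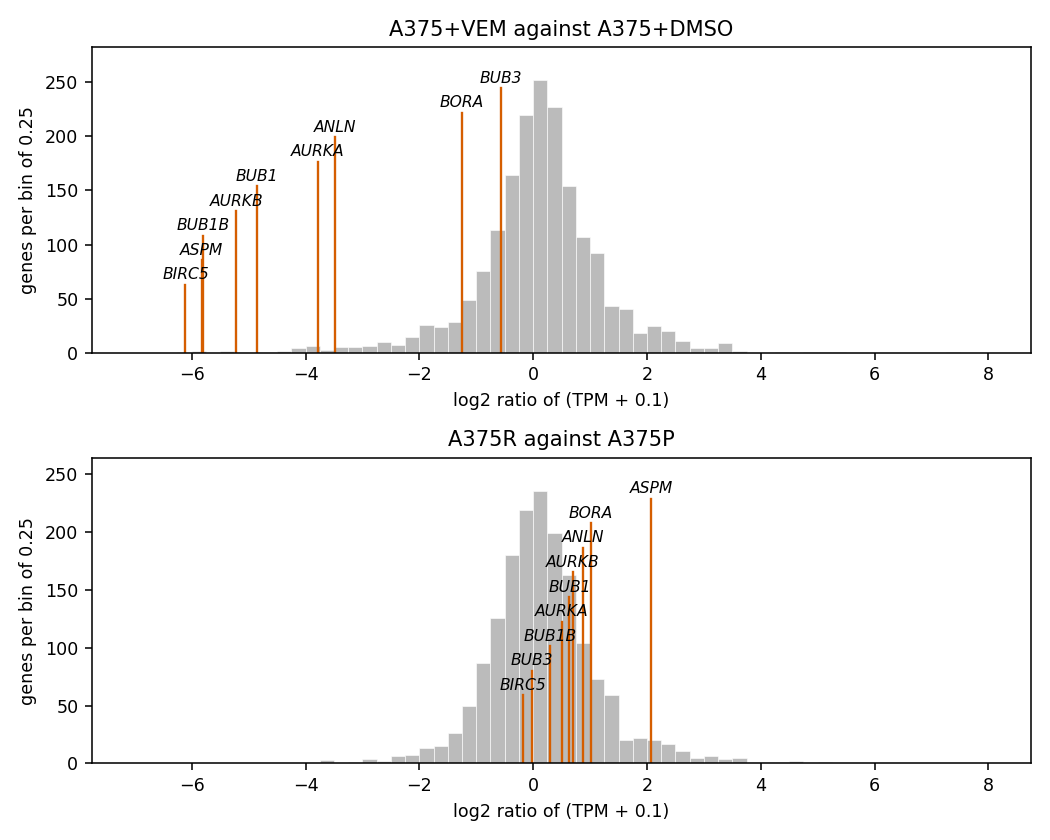
Log2 ratio of (TPM + 0.1) for all genes compared (grey histogram, bins of 0.25, genes per bin) and for the 9 genes (orange lines, whose heights serve only to separate the names), for A375+VEM against A375+DMSO above and A375R against A375P below. In the upper panel 7 of the lines lie at −3.47 or lower, and in the lower panel ASPM at 2.08 stands apart from the rest, which lie between −0.18 and 1.02.

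In A375R against A375P the median log2 ratio of the 9 genes was 0.64, and that of 1689 genes compared was 0.10. ASPM led with 2.08, above 96.2% of all genes, followed by BORA (1.02), ANLN (0.88), AURKB (0.70) and BUB1 (0.64). AURKA (0.50), BUB1B (0.30), BUB3 (−0.03) and BIRC5 (−0.18) stayed within the threshold. Of the 5 genes called, only ASPM, BORA and ANLN kept an interval wholly above 1.5-fold, and with the ratios scaled to a median of 0 BUB1 lay at 0.54 and lost its call, which left 4.

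The solvent library also differed from A375P. In A375+DMSO against A375P, 6 of the 9 genes were higher by more than 1.5-fold and 0 were lower, beside 26.8% higher and 18.9% lower among 1720 genes compared, and the medians were 0.69 for the 9 genes and 0.09 for all genes. ASPM had a ratio of 4.55 (interval 4.19 to 4.95), BORA 1.82 (1.54 to 2.15), AURKB 1.76 (1.61 to 1.91), BUB1 1.62 (1.48 to 1.78), AURKA 1.61 (1.497 to 1.73) and ANLN 1.51 (1.43 to 1.59). ANLN lost its call with a pseudocount of 1 (log2 ratio 0.58) and with the ratios scaled to a median of 0 (0.50), and 5 genes were higher under either setting. BUB3 was lower, at a ratio of 0.853 (interval 0.809 to 0.899). DMSO and the unstated time of A375P cannot be told apart here, and both comparisons above share the A375P library.

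Between A375R and A375+DMSO none of the 9 genes passed 1.5-fold in either direction, beside 10.5% higher and 9.99% lower among 1702 genes compared. Their log2 ratios lay between −0.43 (BIRC5) and 0.29 (ANLN), with a median of −0.06 beside 0.02 over all genes. BIRC5 was lower in A375R, at a TPM ratio of 0.740 (interval 0.681 to 0.803), and ANLN was higher, at 1.22 (interval 1.16 to 1.28). The call of these genes in A375R thus depended on which library without vemurafenib was the control. Over all genes the calls were also fewer here than against A375P, where 26.8% were higher and 17.5% lower.

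Against the other libraries A375+VEM was low as well. In A375+VEM against A375P 8 of the 9 genes were lower by more than 1.5-fold and 0 were higher, beside 25.3% lower and 36.9% higher among 1782 genes compared. The medians were −3.65 for the 9 genes and 0.15 for all genes. BIRC5 (−5.85) and BUB1B (−5.54) had the 2 lowest log2 ratios of the table at the same pseudocount, and ASPM (−3.65) was less far down than against A375+DMSO. Summed with BUB1B-PAK6, BUB1B stood at −3.45 in this pair and at −3.79 in A375+VEM against A375R. BORA was the gene not called lower against A375P, with a log2 ratio of −0.40, while BUB3 passed the threshold at −0.79. In A375+VEM against A375R all 9 genes were lower by more than 1.5-fold, beside 23.9% lower and 30.8% higher among 1773 genes compared, with log2 ratios from −5.83 (BUB1B) to −0.77 (BUB3) and a median of −4.79 beside 0.10 over all genes. Of the libraries of cells in vemurafenib, the one with continuous exposure thus had the higher level of every one of the 9 genes.

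**Figure D3:**
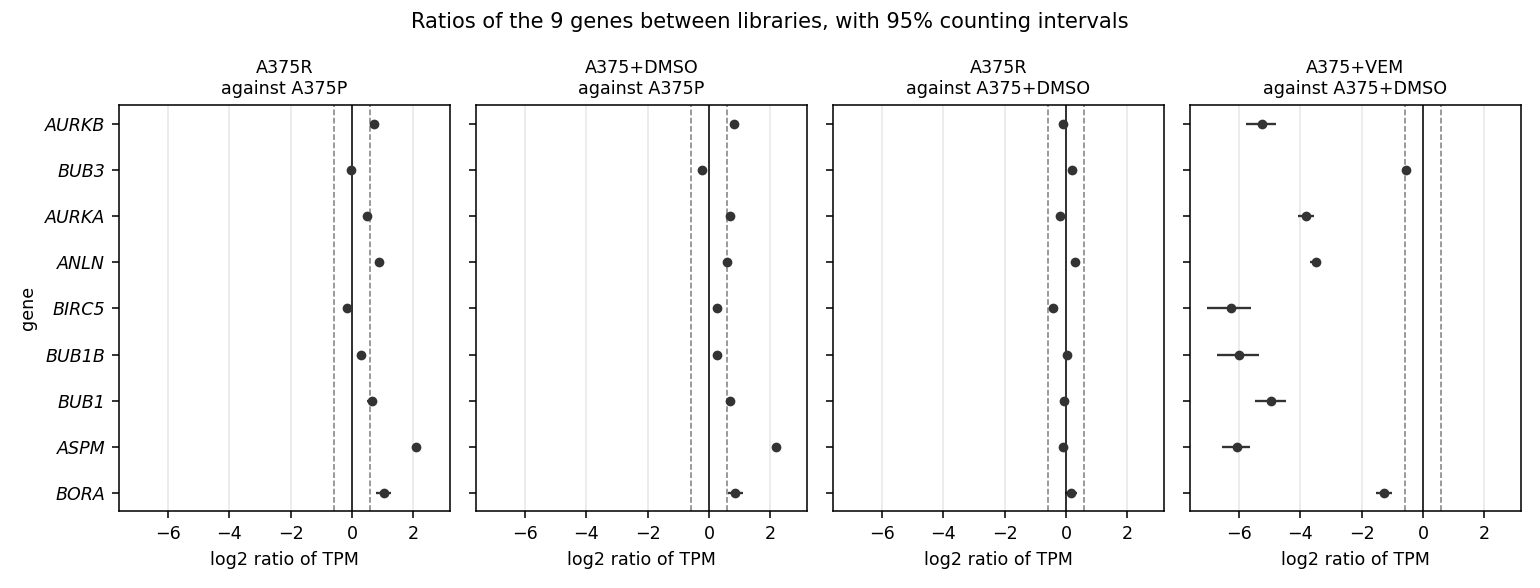
Log2 ratio of TPM of the 9 genes (rows) in 4 pairs of libraries (panels), with 95% counting intervals as bars and dashed lines at 1.5-fold either way. In A375+VEM against A375+DMSO the points lie from 1.48-fold to 77.1-fold lower, whereas in A375R against A375+DMSO the ratios lie between 0.740 and 1.22.

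Ratios within a library, which do not depend on how libraries are scaled to each other, showed that partner genes did not move in step. AURKA stood at 6.80 times the TPM of BORA in A375P, 4.73 times in A375R and 6.02 times in A375+DMSO. In A375+VEM the ratio was 1.03 (interval 0.814 to 1.31), so the kinase transcript no longer exceeded that of its cofactor. AURKB stood at 1.24 times BIRC5 in A375P (interval 1.13 to 1.35), 2.27 times in A375R (2.09 to 2.47), 1.81 times in A375+DMSO (1.68 to 1.95) and 3.65 times in A375+VEM (2.03 to 6.82). The interval in A375+VEM is wide because it rests on 37 and 18 reads, and it overlaps that of A375R. BUB1 stood at 0.175 times BUB3 in A375P, at 0.278 times in A375R and at 0.333 times in A375+DMSO, but at 0.0159 times in A375+VEM (interval 0.0111 to 0.0220). BUB1B stood at 0.262, 0.328, 0.369 and 0.00855 times BUB3 in the same order, the last with an interval of 0.00521 to 0.0133. That last ratio counts BUB1B alone, at 0.673 TPM, and leaves out the readthrough BUB1B-PAK6, at 2.53 TPM in A375+VEM. Its interval does not cover how shared reads were assigned. The adaptor transcript was thus in far greater excess over both of its partners in A375+VEM.

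**Figure D4:**
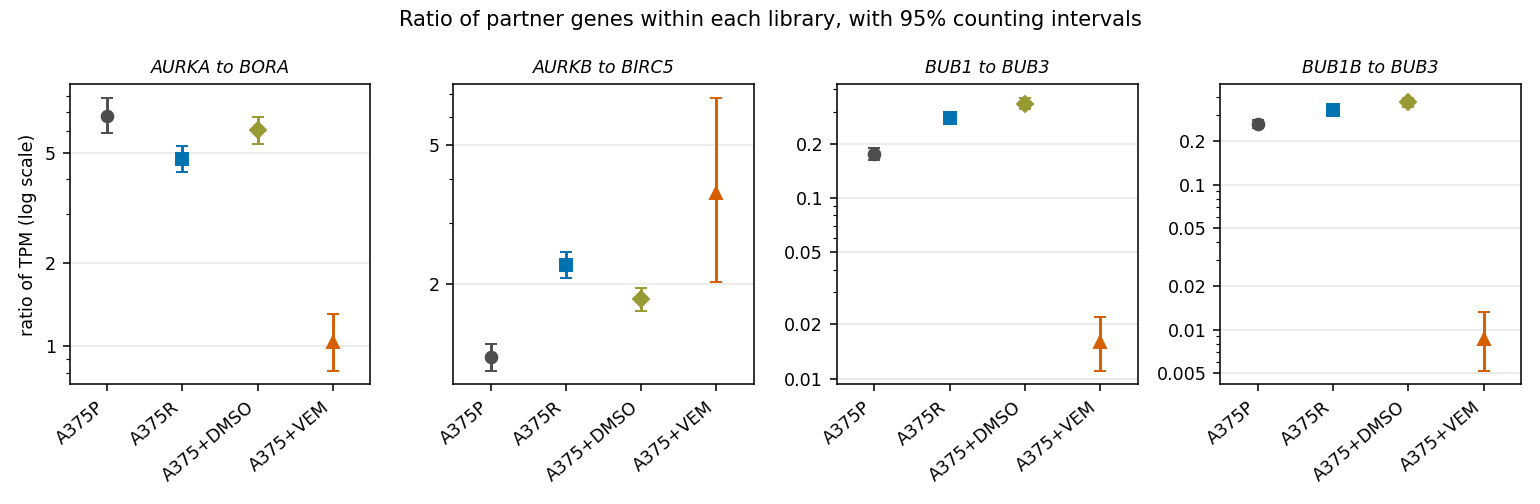
Ratio of TPM between partner genes within each library on log axes, 1 panel per pair, with 95% counting intervals as bars. The ratio of AURKA to BORA is 1.03 in A375+VEM and between 4.73 and 6.80 in the other libraries, and both ratios to BUB3 are lowest in A375+VEM.

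Other genes of cell division in the table were counted by lists, which were written with earlier results of these data known. Their counts in A375+VEM against A375+DMSO stand beside 19.7% lower and 26.5% higher among all genes compared. Of 10 subunits of the anaphase-promoting complex (APC/C), the ubiquitin ligase that the checkpoint inhibits, 2 were lower and 1 was higher by more than 1.5-fold in A375+VEM against A375+DMSO, with a median log2 ratio of −0.27. The subunits past the threshold were ANAPC10 (−1.31), ANAPC1 (−0.73) and ANAPC2 (0.62). Of 16 other genes of the spindle, kinetochore, centrosome and nuclear envelope 6 were lower and 0 were higher, with a median of −0.31, and AUNIP, a partner of Aurora A at the spindle pole, was lowest at −1.58. AUNIP had 112 reads (5.43 TPM) in A375P, 233 reads (12.5 TPM) in A375R, 271 reads (14.1 TPM) in A375+DMSO and 89 reads (4.65 TPM) in A375+VEM. Its levels in A375+VEM and A375P did not differ beyond counting error (ratio 0.858, interval 0.642 to 1.14). BOD1, which orients chromosomes on the spindle (−1.18), and ALMS1, a centrosome protein (−1.06), followed. AURKC, the third Aurora kinase, had 3 to 12 reads per library, too few to place.

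Of 9 genes of S phase and replication-linked repair 8 were lower and 1 was higher in A375+VEM against A375+DMSO, beside the same 19.7% lower and 26.5% higher among all genes, with a median log2 ratio of −3.10. BLM, a helicase (−4.31), ASF1B, a histone chaperone (−4.18), and BRCA2 (−3.82) were lowest. ASF1A, the other ASF1 histone chaperone, was the one gene higher (0.80), with 419 reads in A375+DMSO and 726 reads in A375+VEM, so the pair moved in opposite directions. Of the 5 other BIRC genes, relatives of survivin among the apoptosis inhibitors, 4 could be compared and none was lower past the threshold. BIRC7 was called higher (0.93) on 9 and 18 reads, and the median was 0.02.

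In A375R against A375P, where 26.8% of all genes compared were higher and 17.5% lower, the S phase list had 6 of 9 genes higher and 0 lower (median log2 ratio 0.79), and the spindle list 3 of 15 higher and 1 lower (0.23). The APC/C subunits had 0 of 10 higher and 3 lower (−0.33). BIRC3 was higher at 1.46, with 1386 reads in A375P and 3445 reads in A375R, whereas BIRC5 of the same family was at −0.18. In A375R against A375+DMSO, 10.5% of all genes compared were higher and 9.99% lower. There the S phase list had 1 of 9 genes higher and 0 lower (median log2 ratio 0.28). The spindle list had 1 of 16 higher and 1 lower (0.01), and the APC/C subunits 1 of 10 higher and 0 lower (−0.03). The spindle gene called lower was AURKC, on 3 reads in A375R and 12 reads in A375+DMSO, too few to place. The calls in these 3 lists were thus fewer with A375+DMSO as the control, as were those over all genes. BIRC3 was higher against A375+DMSO too (2.81).

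**Figure D5:**
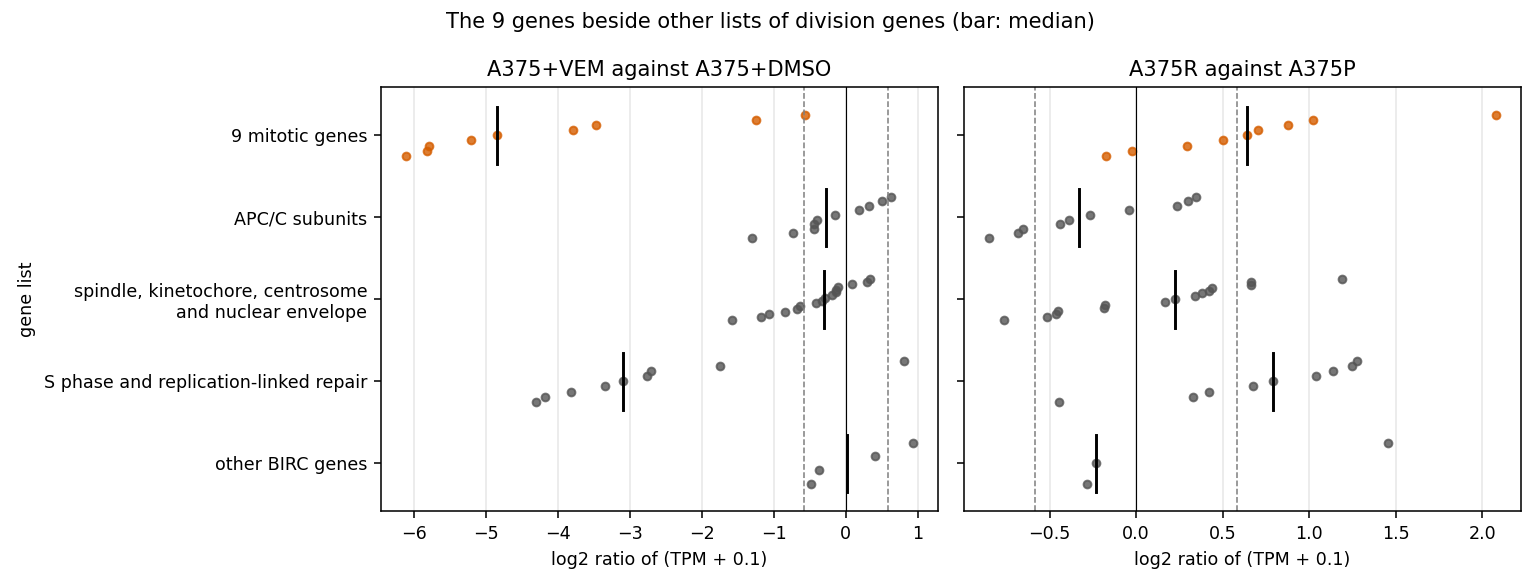
Log2 ratio of (TPM + 0.1) for each gene of the lists and for the 9 genes, with the median of each list marked, for 2 pairs of libraries, A375+VEM against A375+DMSO on the left and A375R against A375P on the right. In the first pair the medians are −4.85 for the 9 genes, −3.10 for the S phase list and −0.27 for the APC/C subunits.

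Genes most like the 9 were sought by the root mean square (RMS) distance of log2(TPM + 0.1), centred over the 4 libraries, to the mean profile of the 9 genes. Among 1691 other genes, whose median distance was 1.77, the 10 nearest were ASNS (0.064), ASF1B (0.1004), ARHGAP11A (0.128), ALMS1-IT1 (0.184), BRCA2 (0.228), ATAD2 (0.278), ANKRD1 (0.302), BLM (0.306), ADM2 (0.327) and BARD1 (0.429). Only 3 of these 10 were also among the 10 nearest by Pearson correlation. Of these 10, ASF1B, BRCA2, ATAD2, BLM and BARD1 were in the S phase list, and reads of ARHGAP11A may be split with its near-identical copy ARHGAP11B. ASNS, which encodes asparagine synthetase and is in none of the lists, had 269.1 TPM in A375P, 390.9 TPM in A375R, 431.2 TPM in A375+DMSO and 22.8 TPM in A375+VEM. ALMS1-IT1, an RNA from an intron of ALMS1, rested on 2 to 50 reads per library. Of the 9 genes themselves AURKA (0.170) and ANLN (0.241) were nearest to their mean, and BORA (1.24) and BUB3 (1.41) were farthest, with 148 and 269 other genes nearer than they were. BIRC5 (0.921), BUB1B (0.820), ASPM (0.791) and AURKB (0.454) also lay farther from the mean profile than each of the 10 nearest other genes.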

How the data were processed

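RNA-seq was analysed with 1 library per condition, and conditions were taken from the labels. The authors deposited whole-number read counts per gene without normalization. The authors' TPM is that count per gene length, scaled to one total per library, a relation that held for every library in the table. The gene length is also the deposited value. The submitters' processing notes name HISAT2, TopHat2, Bowtie2, HISAT and hg19, without roles, and the counting program and strand setting are not given in the sources used here. The table used here held 2864 genes with values and 1 incomplete row, which was left out.

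Ratios of (TPM + 0.1) were taken where either library of a pair reached a TPM of 1, and called past 1.5-fold. This scale understates changes of low genes. With 1 library per condition no test between conditions was made. Single ratios of TPM carry exact Clopper-Pearson 95% intervals on reads, which compare libraries and not conditions. Gene likeness used a mean TPM of 1 or more. Members and lists were chosen with earlier results of these data known. Named were the 9 genes, the 10 nearest others, and of each list up to 3 genes each way past the threshold in A375+VEM against A375+DMSO, and partners. AURKC, BIRC3, BUB1B-PAK6 and AURKAPS1 were named after their values were seen. The ratio step was tested on simulated data. Alternatives were pseudocounts of 1 and 0.01, no filter, a TPM of at least 5, median scaling, a 2-fold threshold, an interval past 1.5-fold, and Pearson correlation for likeness. One gene list is not reported here. Summing a gene with its copy or readthrough was added after seeing the data. Promoters came from RefSeq (GRCh38.p14). Tables were handled with pandas 2.3.3 and numpy 2.4.6 in Python 3.11.15, intervals with scipy 1.17.1 and figures with matplotlib 3.10.9.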

Additional observations from a re-analysis of the deposited data

Results flagged for a closer look

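For 7 of the 9 genes the log2 ratio of A375+VEM against A375+DMSO and that of A375R against A375P had opposite signs, with both counting intervals off a ratio of 1. The first ratio minus the second was −7.90 for ASPM, −6.09 for BUB1B, −5.91 for AURKB, −5.49 for BUB1, −4.35 for ANLN, −4.29 for AURKA and −2.27 for BORA. Each pair had its own control library and 1 library per condition, so whether the pairs differ was not tested. For AURKA and BUB1B the ratio in A375R was within the threshold of 1.5-fold.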

How the results depend on the processing

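No value past the threshold changed direction under the alternatives run. The medians stayed in 27 of 30 cases within the median counting interval of the 9 ratios, or shifted by no more than its reach to one side. Of the counts of the 9 genes past the threshold, 80 of 84 values stayed within 1.5 times the reported count. The exceptions in A375R against A375P were 2 genes higher at a 2-fold threshold and 3 where the interval also had to pass 1.5-fold, and in A375+DMSO against A375P 1 gene and 3 genes. With a pseudocount of 1 the median log2 ratio was −4.14 in A375+VEM against A375+DMSO, −2.94 in A375+VEM against A375P and −4.09 in A375+VEM against A375R, since a larger pseudocount shrinks ratios of low levels. By Pearson correlation 3 of the 10 nearest genes were shared with those by distance. The correlation leaves out the size of a gene's changes, which the distance counts, and the part of this in the difference was not tested. Of single genes, 257 of 282 values lay within the counting interval of the reported ratio. No filter and a TPM of at least 5 could change no ratio, median or count of the 9 genes. Each gene reached a TPM of 5 in at least 1 library of every pair. Each of these settings gave 54 of the single values, 6 of the medians and 12 of the counts, all the same as reported. Scaling to a median ratio of 1 shifted all genes by 0.11 on the log2 scale in A375+VEM against A375+DMSO and by 0.15 in A375+VEM against A375P. AURKA summed with AURKAPS1 stood at −3.54 in A375+VEM against A375+DMSO. Depth limits BIRC5, BUB1B, BUB1, AURKB and ASPM in A375+VEM most, at 18 to 44 reads. No paired analysis was possible because each condition has 1 library and no test was made.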
